A study of Mus musculus with 6 samples.

Results

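The insulin-like growth factor (IGF) axis was followed through 10 genes of a table of 46095 gene symbols: the ligands Igf1 and Igf2, the receptors Igf1r and Igf2r, and the binding protein genes Igfbp2, Igfbp3, Igfbp4, Igfbp5, Igfbp6 and Igfbp7. Members were taken by symbol, with no threshold on their values, and all 10 were found. The cells were 3T3-L1, preadipocytes derived from mouse embryo fibroblasts that fill with lipid when differentiated in the dish, taken 8 days after differentiation. Messenger RNA was sequenced from 3 samples that had received 0.125 μg/mL of flavonoids from the plant Smilax glabra and from 3 untreated samples of the same line and day. Differentiation was shared by both groups, and the single cell line limits the model to cultured cells of 1 origin. Values are FPKM, fragments scaled by gene length and library depth.

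IGF1 and IGF2 are secreted peptides that resemble insulin and drive growth and survival by binding the receptor tyrosine kinase IGF1R. IGF2R binds IGF2 without such signalling, removes it from the cell surface, and also carries enzymes tagged with mannose 6-phosphate to lysosomes. The binding proteins hold the peptides outside the cell and can restrain or prolong their action, and IGF1 is known as a stimulus of fat cell formation in this line.

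The FPKM steps gave back whole fragments, and the libraries held 21952064 to 26355863 of them. Of 12 markers of mature adipocytes, 8 stayed below 1 FPKM in every library, Adipoq, Plin1, Cd36, Slc2a4 and Lep among them, while 4 were well expressed. Fabp4, a fatty acid carrier, averaged 170 ± 22.5 FPKM in treated and 219 ± 38.1 FPKM in untreated cells (SD, n = 3 each), and Lpl, lipoprotein lipase, 262 ± 73.0 FPKM in treated and 163 ± 25.3 FPKM in untreated cells. The regulators Pparg and Cebpa averaged 11.6 and 5.82 FPKM in treated cells, against 10.8 and 7.18 FPKM in untreated cells. The adipocyte label was thus met by 4 of its 12 markers, and all 8 preadipocyte or fibroblast markers reached a mean of 1 FPKM. The untreated libraries differed in how level followed gene length: at 8000 bases the smoothed deviation from the mean of the 6 libraries was 0.01, -0.02 and -0.21 (log2) in flavonoids replicates 1, 2 and 3, against -0.23, 0.06 and 0.39 in untreated replicates 1, 2 and 3. Whether the 3 samples of each group were grown separately is not stated, so a p-value here reflects sample-to-sample spread alone, and that spread may be technical.

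In flavonoid-treated cells Igf1, Igfbp6 and Igfbp7 were lower than in untreated cells, and no tested member was higher. Of the 10 members, 6 reached the mean of 1 FPKM that the test required, and 3 of these fell (adjusted p under 0.05 by limma, fitted to log2(FPKM + 1) of 11464 genes with Benjamini-Hochberg adjustment). Over all tested genes 9.99% were called in either direction, 4.86% higher and 5.13% lower, and 6 genes are too few to set a share against that background. None of the 6 rose in limma, 0 did so at an unadjusted p under 0.05, and voom, limma's method for counts, gave 0 higher and 3 lower from the fragments. The median log2 change of the 6 was -0.50, against -0.02 over all tested genes. Treated and untreated values did not overlap in 4 of the 6, where 34.3% of all tested genes were separated in this way.

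**Figure D1:**
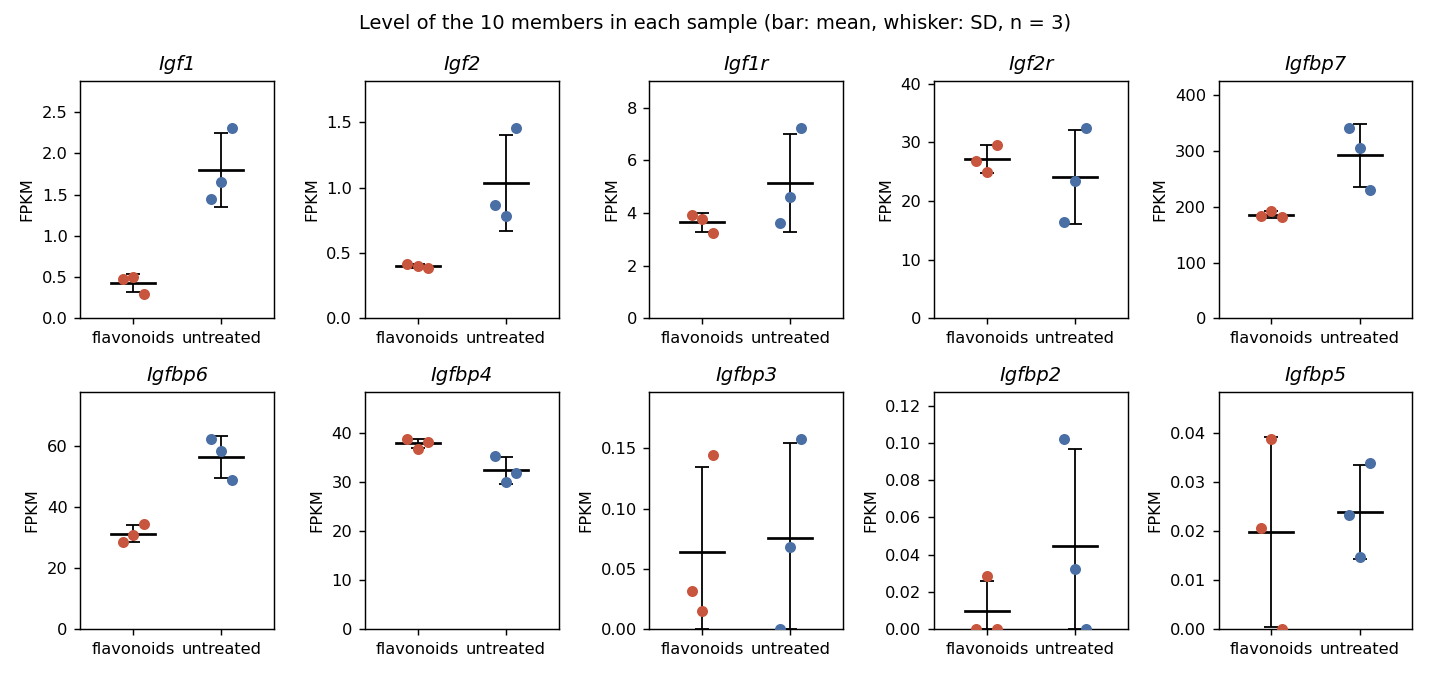
FPKM of each member (vertical axes, each from 0) in 3 flavonoids and 3 untreated samples; points are samples in the order of their replicate numbers, horizontal bars are means and whiskers are SD, drawn no lower than 0. Igf1 lay between 0.300 and 0.505 FPKM in treated samples and between 1.45 and 2.30 FPKM in untreated ones, while Igfbp2, Igfbp3 and Igfbp5 reached at most 0.158 FPKM in any sample.

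Some fibroblast markers were lower in treated cells, as were Igf1, Igfbp6 and Igfbp7. Of the 8 preadipocyte or fibroblast markers, 4 fell (limma, Thy1, Lum, Sfrp2 and Dpt) and 0 rose, where 5.13% of all tested genes were called lower. The 8 markers summed to 1050.0 to 1160.0 FPKM in treated and 1366 to 1739 FPKM in untreated samples. Col1a1 was the largest part of that sum, at 663 ± 79.0 FPKM in treated and 894 ± 164 FPKM in untreated cells, and was not called (limma adjusted p = 0.166). In bulk samples fewer cells of a type and less RNA per cell cannot be told apart, and the part of this shift in the changes of the IGF genes was not tested. Macrophages, a known source of Igf1 in tissue, left little trace: Ptprc and Tyrobp were listed at 0 in all libraries, and the 8 macrophage markers summed to 3.14 to 3.85 FPKM in treated and 3.31 to 4.59 FPKM in untreated samples. The 5 endothelial markers summed to at most 0.345 FPKM, and the 5 smooth muscle markers to 330 to 384 FPKM in treated and 276 to 397 FPKM in untreated samples. Acta2 was nearly all of the smooth muscle sum (339 ± 26.8 FPKM in treated and 328 ± 60.6 FPKM in untreated cells). Myh11 and Cnn1 reached at most 0.0965 and 0.0683 FPKM in any sample. Tagln and Des were lower in treated cells without overlap, but were not called (limma adjusted p = 0.0815 and 0.173).

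The promoter windows of the genes that fell, and of Igf2r, which was not called, are shown so that their make-up can be compared. They come from RefSeq (GRCm38.p6), span 250 bases before to 50 bases after an annotated start, and all 10 members had at least 1 window, 14 in total. Capitals mark matches on either strand to the promoter box TATAAA, to the hypoxia response core ACGTG, to TCACGTGA (core of the element bound by the lysosomal regulator TFEB), to TGATGNAA (the element shared by C/EBP and ATF factors) or to the GC-rich box GGGCGG. Each TCACGTGA also contains ACGTG on both strands.
Igf1, chr10:87860861-87861160 (plus strand): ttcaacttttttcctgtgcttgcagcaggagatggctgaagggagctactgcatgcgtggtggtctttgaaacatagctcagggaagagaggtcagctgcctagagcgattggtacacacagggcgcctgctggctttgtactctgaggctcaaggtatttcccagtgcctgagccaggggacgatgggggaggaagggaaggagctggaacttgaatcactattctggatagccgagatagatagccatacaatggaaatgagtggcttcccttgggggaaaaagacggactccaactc
Igfbp6, chr15:102143936-102144235 (plus strand): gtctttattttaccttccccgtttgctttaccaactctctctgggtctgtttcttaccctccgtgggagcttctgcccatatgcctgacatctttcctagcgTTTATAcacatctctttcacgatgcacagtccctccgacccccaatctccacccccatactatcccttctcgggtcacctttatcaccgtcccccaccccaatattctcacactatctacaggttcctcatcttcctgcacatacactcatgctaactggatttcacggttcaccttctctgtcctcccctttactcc
Igfbp7, chr5:77407996-77408295 (minus strand): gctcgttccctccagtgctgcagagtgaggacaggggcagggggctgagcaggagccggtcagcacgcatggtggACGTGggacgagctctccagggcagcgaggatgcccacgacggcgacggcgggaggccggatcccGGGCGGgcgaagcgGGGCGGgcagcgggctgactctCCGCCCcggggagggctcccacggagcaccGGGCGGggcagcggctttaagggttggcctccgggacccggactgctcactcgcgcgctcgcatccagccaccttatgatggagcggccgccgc
Igf2r, chr17:12769657-12769956 (minus strand): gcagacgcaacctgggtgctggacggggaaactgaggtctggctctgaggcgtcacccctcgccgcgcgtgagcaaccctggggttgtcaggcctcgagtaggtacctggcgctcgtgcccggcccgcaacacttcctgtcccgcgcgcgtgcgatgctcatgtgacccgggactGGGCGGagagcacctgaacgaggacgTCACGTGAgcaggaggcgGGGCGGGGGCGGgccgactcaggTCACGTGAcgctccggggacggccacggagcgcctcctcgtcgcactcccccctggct

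The Igf1 window held none of these letters, the Igfbp6 window 1 TATAAA on the strand opposite to the gene, and the Igfbp7 window 1 ACGTG and 4 GGGCGG. In the Igf2r window TCACGTGA occurred at -49 and at -8, counted in bases from the annotated start, and 0.974% of all 32851 windows held it. No other member window held TCACGTGA. Several motifs were searched in every member window, so that share is not a test of Igf2r. Of all windows 13.6% held TATAAA, 19.6% ACGTG, 3.97% TGATGNAA and 35.7% GGGCGG. G and C made up 52.3% of the Igf1 window, 49.7% of the Igfbp6 window and 73.3% of the Igfbp7 window, against a median of 52.7% over all windows. The Igf1 window belongs to a start inside the GENCODE gene, downstream of its first base. The Igfbp6 window ends at 102144235, before the first base of the GENCODE gene at 102144362, and so holds no base of that gene. A match is a description of letters, not of binding.

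Both ligand genes were weakly expressed. Igf1, the liver and fat derived ligand whose gene lies on chromosome 10 at 87858265 to 87937042 (GRCm38, plus strand, as annotated by GENCODE M21), had 0.471, 0.505 and 0.300 FPKM in flavonoids replicates 1, 2 and 3, against 1.45, 1.65 and 2.30 FPKM in untreated replicates 1, 2 and 3. Every treated sample lay below every untreated one, and the untreated samples had the larger SD in FPKM, at a higher mean. The FPKM rested on 89, 101 and 56 recovered fragments in treated samples, against 242, 291 and 439 in untreated samples. Mean Igf1 was 0.425 ± 0.110 FPKM in treated and 1.80 ± 0.446 FPKM in untreated cells (SD, n = 3 each), 4.24-fold lower with flavonoids. On the log2(FPKM + 1) scale Igf1 fell by 0.97 (SE 0.17, limma adjusted p = 0.0110), and since that scale understates changes of low genes, voom on the fragments put the log2 change at -2.09. The Igf1 call was lost without flavonoids replicate 1 (limma adjusted p = 0.0570) or untreated replicate 2 (0.0647). All alternatives together spanned 0.00168 to 0.0647.

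Igf2, the fetal growth ligand expressed from the paternal copy (chromosome 7, 142650766 to 142666816, minus strand), averaged 0.717 FPKM over the 6 samples and so was not part of the main test. It had 0.414, 0.400 and 0.388 FPKM in flavonoids replicates 1, 2 and 3, against 0.870, 0.780 and 1.45 FPKM in untreated replicates 1, 2 and 3. The groups did not overlap, and an exact two-sided permutation test of 3 samples against 3 gave p = 0.1, the smallest value this design allows. Behind these levels stood 42, 43 and 39 fragments in treated samples, against 78, 74 and 149 in untreated samples. With all genes above 0 in the limma fit the Igf2 change was -0.52 on the log2(FPKM + 1) scale (adjusted p = 0.108), and voom on genes with a mean of at least 10 fragments gave a log2 change of -1.32 (adjusted p = 0.0367, where 8.77% of 13615 genes were called, and 4.86% were called lower). Igf2 shares 3596 exon bases with the read-through gene Gm49394 on its own strand, so fragments of these annotated genes cannot be told apart there. The ratio of Igf1 to Igf2 was 1.14, 1.26 and 0.772 in flavonoids replicates 1, 2 and 3, against 1.67, 2.12 and 1.58 in untreated replicates 1, 2 and 3. These ratios did not overlap between groups, but they rest on few fragments and were not tested.

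Neither receptor gene passed the test. Igf1r, the signalling receptor (chromosome 7, 67952827 to 68233668, plus strand), had 3.91, 3.77 and 3.24 FPKM in flavonoids replicates 1, 2 and 3, against 3.61, 4.60 and 7.20 FPKM in untreated replicates 1, 2 and 3. The groups overlapped, and untreated replicate 3 stood highest. The log2 change was -0.36 (SE 0.21, limma adjusted p = 0.305), and without untreated replicate 3 it was -0.13. Igf2r, the scavenging and lysosomal sorting receptor (chromosome 17, 12682406 to 12769664, minus strand), had 26.8, 24.9 and 29.6 FPKM in flavonoids replicates 1, 2 and 3, against 16.3, 23.5 and 32.4 FPKM in untreated replicates 1, 2 and 3. The untreated samples enclosed all treated ones, with a log2 change of 0.21 (SE 0.22, limma adjusted p = 0.566).

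Both receptor genes are long, with 12590 bases for Igf1r and 8994 bases for Igf2r implied by the FPKM steps, and their untreated values were ordered as the length trend of the libraries. After each library's smooth trend over gene length was removed, the log2 change was -0.17 for Igf1r (limma adjusted p = 0.321, range over all alternatives 0.0801 to 0.637) and 0.38 for Igf2r (0.0627, range 0.0531 to 0.919). Within each sample Igf2r exceeded Igf1r 6.85, 6.60 and 9.13 times in flavonoids replicates 1, 2 and 3, against 4.53, 5.10 and 4.49 times in untreated replicates 1, 2 and 3. This ratio of levels did not overlap between groups, although neither gene was called alone. The ratio was not tested, and 34.3% of all tested genes were themselves without overlap. No such share was computed for ratios. In mouse tissues the paternal copy of Igf2r is silenced by the antisense transcript Airn, which was measured at 0.400, 0.108 and 0.144 FPKM in flavonoids replicates 1, 2 and 3, against 0.614, 0.519 and 1.33 FPKM in untreated replicates 1, 2 and 3. Those Airn values rested on 14, 4 and 5 fragments in treated samples, against 19, 17 and 47 in untreated samples. Airn was too low for the main test.

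**Figure D2:**
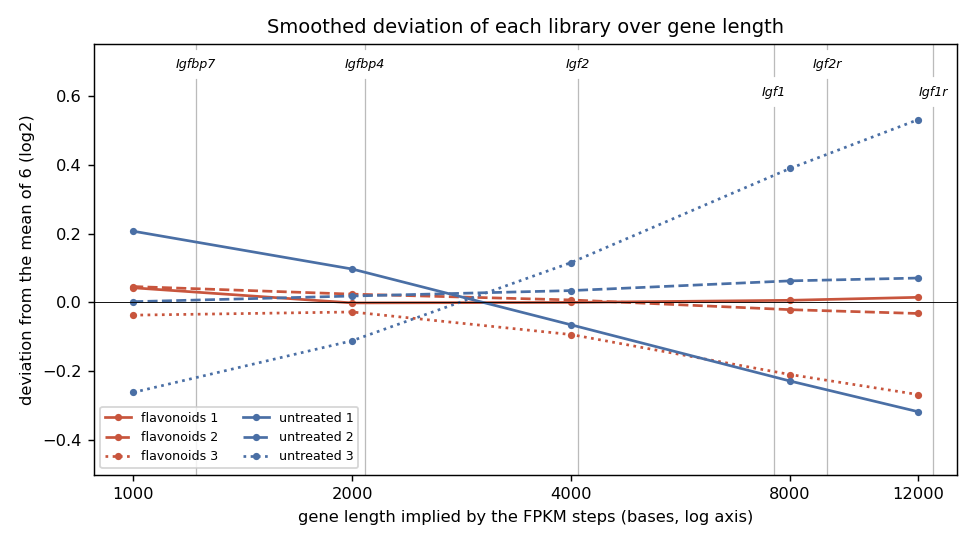
Smoothed deviation of each library from the mean of the 6 libraries (vertical axis, log2 of FPKM + 1) over the gene length implied by the FPKM steps (horizontal axis, bases, log axis); grey lines mark 6 members. At 8000 bases untreated replicates 1 and 3 lay at -0.23 and 0.39, and at 1000 bases at 0.21 and -0.26.

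Among the binding protein genes, Igfbp7, Igfbp6 and Igfbp4 carried nearly all of the message. Igfbp7, a secreted family member that binds IGFs weakly and also binds insulin (chromosome 5, 77349240 to 77408041, minus strand), was the highest member, ranked 311 by mean FPKM in the whole table. It had 184, 193 and 182 FPKM in flavonoids replicates 1, 2 and 3, against 341, 306 and 230 FPKM in untreated replicates 1, 2 and 3. The treated samples lay close together and below all untreated ones, of which untreated replicate 3 was nearest to them. Mean Igfbp7 was 186 ± 5.61 FPKM in treated and 292 ± 56.5 FPKM in untreated cells (SD, n = 3 each), a log2 change of -0.63 (SE 0.16, limma adjusted p = 0.0403). Leaving out 1 library ended the Igfbp7 call for untreated replicate 2 (limma adjusted p = 0.184) and for flavonoids replicates 1, 2 and 3 (0.147, 0.118 and 0.122), as did testing every gene above 0 (0.107). All alternatives together spanned 0.000542 to 0.184. Its exons overlap those of Polr2b on the other strand by 85 bases, and the use of strand in the counting is not given in the sources used here.

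Igfbp6, a binding protein that prefers IGF2 (chromosome 15, 102144362 to 102149511, plus strand), had 28.7, 30.8 and 34.3 FPKM in flavonoids replicates 1, 2 and 3, against 62.4, 58.4 and 48.9 FPKM in untreated replicates 1, 2 and 3. Here too all treated samples were below all untreated ones. The means were 31.3 ± 2.85 FPKM in treated and 56.6 ± 6.91 FPKM in untreated cells (SD, n = 3 each), 1.81-fold lower with flavonoids (log2 change -0.83, SE 0.13, limma adjusted p = 0.00835). That call was lost without flavonoids replicate 1 (limma adjusted p = 0.0553) or untreated replicate 2 (0.0665). All alternatives together spanned 0.000393 to 0.0665. Igfbp4, an inhibitory binding protein that is cleaved outside the cell by the protease PAPPA (chromosome 11, 99041244 to 99054392, plus strand), had 38.7, 36.8 and 38.0 FPKM in flavonoids replicates 1, 2 and 3, against 35.4, 29.9 and 31.8 FPKM in untreated replicates 1, 2 and 3. Its values were all higher with flavonoids and did not overlap, yet the log2 change of 0.22 did not pass (SE 0.11, limma adjusted p = 0.236). Its fitted change was positive in each of 24 alternatives, between 0.17 and 0.29 (limma adjusted p 0.107 to 0.585).

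With the length trend removed and all libraries kept, Igf1, Igfbp6 and Igfbp7 had log2 changes of -0.82, -0.85 and -0.65 (limma adjusted p = 0.00168, 0.000393 and 0.000542), where 21.9% of all tested genes were called and 9.87% were called lower. Each library was also left out in turn, which made 7 fits with the trend removed and no other change. The highest limma adjusted p in these was 0.00856 for Igf1, 0.00349 for Igfbp6 and 0.00608 for Igfbp7. The trend was estimated once, from all 6 libraries, so a library left out still shaped the correction of the others. Igfbp6 and Igfbp7 are short, at 1297 and 1221 bases by the FPKM steps, while Igf1 is long, at 7598 bases.

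**Figure D3:**
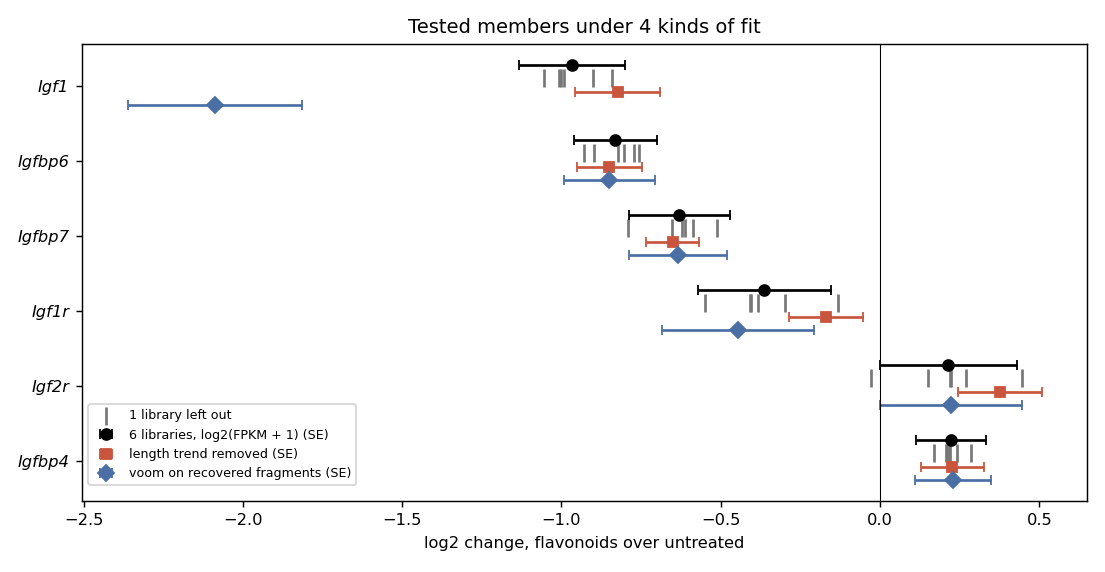
Fitted log2 change, flavonoids over untreated (horizontal axis), of the 6 tested members (rows) for all 6 libraries on log2(FPKM + 1), for each library left out, with the length trend removed, and with voom on recovered fragments, which adds no 1 FPKM to the values; whiskers are SE. Igf1, Igfbp6 and Igfbp7 stayed below 0 in all of these, Igf1 at -0.97 by the first and -2.09 by voom.

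Igfbp2, Igfbp3 and Igfbp5 were at the edge of detection. Igfbp3 is otherwise the main carrier of IGFs in serum, and Igfbp5 is a binding protein that attaches to the matrix. Igfbp3 had 2, 1 and 9 fragments in flavonoids replicates 1, 2 and 3, against 0, 4 and 10 in untreated replicates 1, 2 and 3. For Igfbp5 the numbers were 3, 6 and 0 fragments in treated samples, against 3, 2 and 5 in untreated samples, and for Igfbp2 they were 0, 1 and 0, against 3, 1 and 0. Each gene's groups overlapped, no fold is given, and a difference was not detectable at this depth. As counting error alone, a count of 0 allows up to 3 fragments, which is 0.0207 FPKM for Igfbp5 in flavonoids replicate 3 and 0.0541 FPKM for Igfbp3 in untreated replicate 1. Igfbp2 and Igfbp5 are neighbours on chromosome 1 (72824503 to 72852474 and 72857932 to 72874884), and Igfbp3 lies on chromosome 11 (7206086 to 7213923) beside Igfbp1, which was listed at 0 in all 6 libraries. Around Igfbp2 and around Igfbp5, 10 of the 20 nearest protein-coding genes reached a mean of 1 FPKM, and around Igfbp3 5 of the 18 found in the table did, so these stretches of the table were not empty.

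By the deposited FPKM, the order of levels in treated cells was Igfbp7, Igfbp4, Igfbp6, Igf2r, Igf1r, Igf1 and Igf2, and in untreated cells Igfbp6 stood above Igfbp4. The values of Igfbp6 and Igf2r overlapped in treated cells, those of Igfbp4 and Igf2r in untreated cells, and those of Igf1 and Igf2 in both. The place of Igfbp4 rests on its length, 2082 bases as implied by the FPKM steps. That is 0.471 of its GENCODE M21 exon length, where the same ratio is 1.167 for Igfbp6 and 0.966 for Igf2r. Were the fragment numbers of Igfbp4 to share a divisor, its implied length would be too small by it, while its deposited FPKM would be unchanged. In that case the rescaling that follows would put Igfbp4 too low. Rescaled to the GENCODE exon lengths, a choice made after seeing the data, both groups ran Igfbp7, Igfbp6, Igf2r, Igfbp4, Igf1r and Igf1, so the order did not differ on that scale. The rescaling multiplies Igfbp4 by the same ratio in every sample, and it cannot tell which length is right. On that scale Igfbp4 stood at 17.8 ± 0.470 in treated and 15.3 ± 1.29 in untreated cells, and Igfbp6 at 36.5 ± 3.32 in treated and 66.0 ± 8.06 in untreated cells (SD, n = 3 each), with Igf2r and Igfbp4 overlapping in untreated cells.

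Summed over the 6 binding protein genes, the level was 251, 260 and 255 FPKM in flavonoids replicates 1, 2 and 3, against 439, 395 and 311 FPKM in untreated replicates 1, 2 and 3. Igfbp4 made up 15.4%, 14.1% and 14.9% of that sum in treated samples, against 8.06%, 7.58% and 10.2% in untreated samples. The share of Igfbp7 was 73.2%, 74.0% and 71.5% in treated samples, against 77.7%, 77.6% and 74.0% in untreated samples. Treated samples therefore held less binding protein message in all, of which a larger share was Igfbp4. The size of that share rests on the length used for Igfbp4 in the deposited FPKM. Igfbp2, Igfbp3 and Igfbp5 together made up at most 0.0616% of the sum in any sample.

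**Figure D4:**
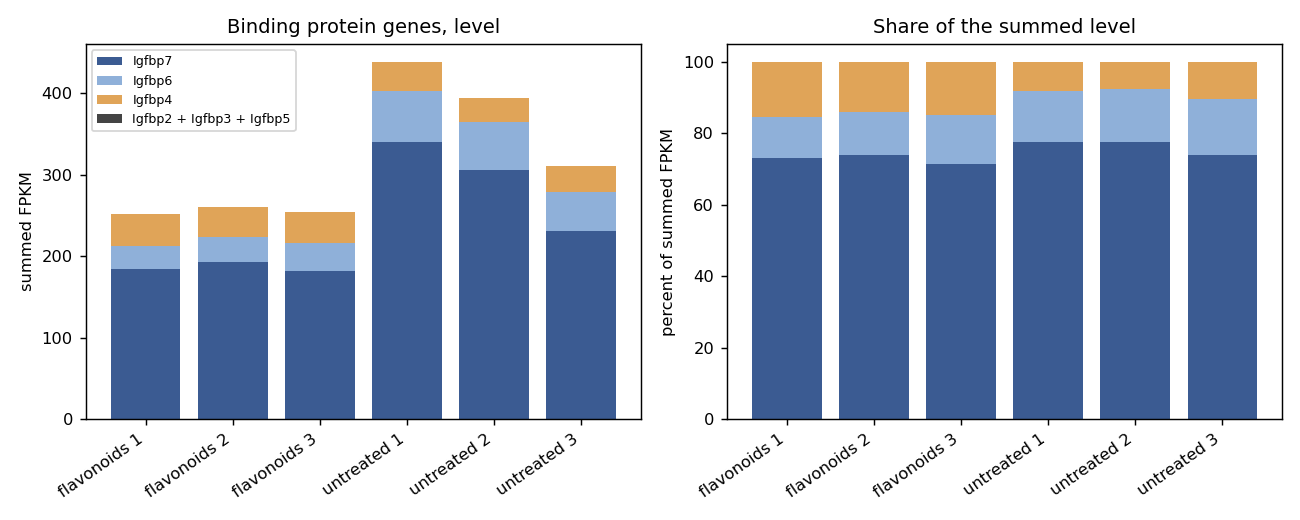
Summed FPKM of the 6 binding protein genes (left, vertical axis) and the percentage of that sum from each (right, vertical axis) in each sample, flavonoids left of untreated. Igfbp7 was the largest part everywhere, and the Igfbp4 share was 14.1% to 15.4% in treated and 7.58% to 10.2% in untreated samples.

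By distance between centred log2(FPKM + 1) profiles over the 6 samples, the tested genes nearest to Igf1 were Itga1 (distance 0.165) and Col27a1 (0.174). Nearest to Igfbp6 were Pygl (0.079) and Apol9b (0.092), and nearest to Igfbp7 were Birc5 (0.084) and Tpi1 (0.114). Itga1, for example, had 0.761, 0.819 and 0.546 FPKM in flavonoids replicates 1, 2 and 3, against 1.68, 2.28 and 3.20 FPKM in untreated replicates 1, 2 and 3. Birc5 had 8.73, 8.74 and 8.69 FPKM in treated samples, against 16.95, 14.3 and 10.8 FPKM in untreated samples. Such likeness rests on 6 samples that share the treatment contrast and the library differences.

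Other genes of the pathway were read in 6 lists of 89 genes, of which 66 were tested, 4 rose and 4 fell. Beside these counts and those of each list stand 4.86% called higher and 5.13% called lower over all tested genes. Their median log2 change was -0.15, against -0.02 over all tested genes. Of 16 genes that set how much ligand is free, 8 were tested, 1 rose and 2 fell. Kazald1, a secreted protein related to the binding proteins, had 11.3, 10.6 and 10.4 FPKM in flavonoids replicates 1, 2 and 3, against 24.6, 22.0 and 18.9 FPKM in untreated replicates 1, 2 and 3 (log2 change -0.95, SE 0.13, limma adjusted p = 0.00522). The Kazald1 groups were well apart, and its call held in each of 24 alternatives. Stc1, a secreted stanniocalcin related to the PAPPA inhibitor stanniocalcin-2, was 1.96-fold lower (limma adjusted p = 0.0348), a call lost in 8 of 23 alternatives. Ctsd, a lysosomal protease that can cleave binding proteins, was 1.73-fold higher, with 938 ± 66.8 FPKM in treated and 542 ± 30.7 FPKM in untreated cells (SD, n = 3 each; limma adjusted p = 0.0116), lost without untreated replicate 2 or flavonoids replicate 1 or 2. Adam9, a membrane protease, measured 48.2 ± 11.4 and 52.9 ± 11.7 FPKM in treated and untreated cells (adjusted p = 0.722). Pappa itself was too low for the test, with 0.978, 0.595 and 0.307 FPKM in flavonoids replicates 1, 2 and 3, against 0.119, 0.112 and 0.291 FPKM in untreated replicates 1, 2 and 3. Its treated samples were all above the untreated ones, at levels of under 1 FPKM, with flavonoids replicate 3 only slightly above untreated replicate 3. The Pappa values rested on 270, 174 and 84 fragments in treated samples, against 29, 29 and 81 in untreated samples.

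Of 27 receptor signalling genes, 24 were tested, and 1 fell. Foxo1, a transcription factor that insulin and IGF signalling keep out of the nucleus, had 3.35 ± 0.282 FPKM in treated and 5.87 ± 1.24 FPKM in untreated cells (SD, n = 3 each; log2 change -0.65, limma adjusted p = 0.0412), and 11 of 23 alternatives did not call it, with adjusted p up to 0.187. In limma 0 of these 24 rose, also at an unadjusted p under 0.05, where 4 fell, and voom gave 0 higher and 1 lower. The insulin receptor gene Insr had 7.02, 6.49 and 5.24 FPKM in flavonoids replicates 1, 2 and 3, against 4.61, 7.27 and 10.6 FPKM in untreated replicates 1, 2 and 3, and Igf1r was 0.558, 0.581 and 0.619 times its level in treated samples, against 0.783, 0.633 and 0.683 times in untreated samples. Insr therefore exceeded Igf1r in all 6 samples, and its own groups overlapped (limma adjusted p = 0.693). Nedd4, a ubiquitin ligase that acts on the receptor's partners, measured 275 ± 40 and 281 ± 57.5 FPKM in treated and untreated cells.

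Growth hormone, through GHR, JAK2 and STAT5, is the main inducer of Igf1 in liver and also acts in fat cells. None of the 6 genes of that list was called by limma or voom, and 0 passed an unadjusted p under 0.05 in either direction. Ghr measured 73.4 ± 20.7 FPKM in treated and 85.0 ± 17.9 FPKM in untreated cells (SD, n = 3 each; limma adjusted p = 0.559). Of 16 genes around Igf2 imprinting and messenger binding, 6 were tested and 0 were called by limma or voom, with 2 higher and 2 lower at an unadjusted p under 0.05. H19, the imprinted RNA next to Igf2, was listed at 0 in all libraries. Igf2bp2, which binds the Igf2 messenger, measured 86.9 ± 7.70 FPKM in treated and 64.0 ± 5.67 FPKM in untreated cells, did not overlap between groups, and missed the threshold (limma adjusted p = 0.0582, range over alternatives 0.00309 to 0.211).

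Of 14 partners that binding proteins attach to, 12 were tested, with a median log2 change of -0.13. Fn1, the fibronectin gene, measured 746 ± 73.5 and 743 ± 351 FPKM in treated and untreated cells, with the untreated samples widely spread.

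The mannose 6-phosphate sorting list, which shares Igf2r's lysosomal role, was the list with the most genes higher: of 10 tested 3 rose and 0 fell, with a median log2 change of 0.24. Over all tested genes 4.86% were called higher and 5.13% lower, and 10 genes are too few to set a share against that background. In limma 0 of them fell at an unadjusted p under 0.05, and voom also gave 3 higher and 0 lower. Nagpa, the enzyme that uncovers the mannose 6-phosphate tag, had 24.2, 24.1 and 25.6 FPKM in flavonoids replicates 1, 2 and 3, against 16.6, 14.6 and 13.9 FPKM in untreated replicates 1, 2 and 3 (log2 change 0.68, limma adjusted p = 0.0105). Gnptg, a subunit of the enzyme that adds the tag, was 1.53-fold higher (limma adjusted p = 0.0298), and Gga2, an adaptor for the receptor's sorting, was 1.47-fold higher (limma adjusted p = 0.0205). M6pr, the smaller mannose 6-phosphate receptor, measured 69.4 ± 5.67 FPKM in treated and 70.6 ± 2.71 FPKM in untreated cells (limma adjusted p = 0.908). The calls of Nagpa, Gnptg and Gga2 were lost when untreated replicate 2, flavonoids replicate 1 or flavonoids replicate 2 was left out, and those of Gnptg and Gga2 also without flavonoids replicate 3. Gnptg was also not called with no filter on low values, nor Gga2 as TPM. Over all alternatives the adjusted p reached up to 0.0794 for Nagpa, 0.132 for Gnptg and 0.104 for Gga2. Of this list, 8 genes had a promoter window. TCACGTGA stood in those of Gnptg and of Vps26a, a retromer subunit that was not called (limma adjusted p = 0.119), and not in those of Nagpa and Gga2. Gnptg and Vps26a had 2 windows each. Of all windows 0.974% held TCACGTGA, a share of windows and not of genes, and no share of genes was computed.

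**Figure D5:**
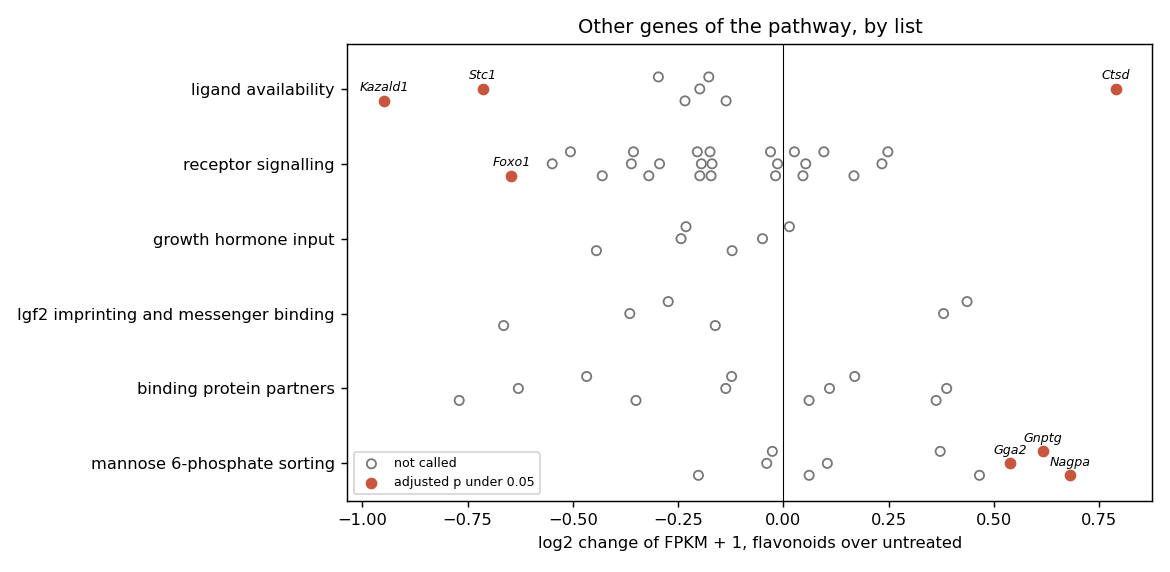
Log2 change on the log2(FPKM + 1) scale, flavonoids over untreated (horizontal axis), of tested genes of the 6 pathway lists (rows); filled points passed an adjusted p under 0.05 and open points did not. Kazald1, Stc1 and Foxo1 lay on the lower side, and Ctsd, Nagpa, Gnptg and Gga2 on the higher side.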

How the data were processed

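Total RNA of 6 samples was taken with TRIzol and made into libraries with a TruSeq kit, per the labels' protocols. The authors deposited 1 table of FPKM values, 1 column per sample, all of which were used. FastQC, HISAT2 and the build mm10 are named, per the submitters' processing notes; for the counter, the annotation and strand the sources used here give nothing.

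The 11464 genes whose mean reached 1 FPKM entered 1 limma fit (version 3.58.1, R 4.3.3) of log2(FPKM + 1) on group, with variance following intensity. Two-sided p-values were adjusted by Benjamini-Hochberg over that whole set, and 0.05 was the threshold. Whole fragments were recovered for all 22235 genes above 0, within 0.005 fragments, from the commonest ratio of FPKM steps between libraries, and gene length from the steps. Where a gene's numbers share a divisor they are too small by it. The recovery of fragments and the main limma fit were tested on simulated data, and the other settings were not. Positions and exon lengths come from GENCODE M21 on GRCm38, which mm10 denotes.

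Named in the text were all members, the called genes of each list (at most the 4 of smallest p), the uncalled gene of highest mean in each list, and the 2 nearest profiles of each called member. Insr, Pappa, Airn, Igfbp1, H19, Vps26a and the cell type markers named were added after their values were seen. 1 gene of the binding protein partner list is counted in the totals over all lists but is not reported here or drawn. Members and lists were chosen with earlier results of these data known. Other settings were pseudocounts of 0.1 and 5, no filter and a mean of at least 5 FPKM, TPM and median-ratio scaling, variance without trend, removal of the length trend (loess, span 0.5), voom, the replicate block and leaving out each library. Chosen after seeing the data were voom at a mean of at least 10 fragments, and the length trend removed together with the block or with each library left out. The trend was not estimated anew when a library was left out. Python 3.11.15 with numpy 2.4.6, pandas 2.3.3, scipy 1.17.1 and matplotlib 3.10.9 was used for the rest.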

Additional observations from a re-analysis of the deposited data

How the results depend on the processing

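Over 24 alternatives Igf1, Igfbp6 and Igfbp7 kept a negative log2 change wherever they were fitted, and no member was called higher. The 1 reversal was Igf2r without untreated replicate 1, at -0.027 (0.21 with all libraries, and up to 0.445 with 1 left out). Against 557 genes higher and 588 lower in the reported fit, calls numbered 317 higher and 324 lower with no filter on low values, and 1379 higher and 1131 lower with the length trend removed. Leaving out 1 library gave 65 to 876 higher and 81 to 833 lower, and with the length trend also removed 708 to 1266 higher and 615 to 1249 lower. Within that range, leaving out untreated replicate 1 gave 1236 higher and 1007 lower, untreated replicate 3 gave 1063 and 894, flavonoids replicate 1 gave 975 higher, and flavonoids replicate 2 gave 990 and 907. Members called lower, 3 in the reported fit, were 0 to 3 with 1 library left out. They were 3 throughout when the length trend, estimated from all 6 libraries, was also removed. Both counts of 0 came without untreated replicate 2 or flavonoids replicate 1. Pathway genes, 4 higher and 4 lower in the reported fit, were 9 higher and 7 lower with the length trend removed, and 2 lower with no filter, with a mean of at least 5 FPKM or as TPM. They were 0 to 5 higher and 1 to 10 lower with 1 library left out, and 5 to 9 higher and 4 to 8 lower when the trend was also removed. With a mean of at least 5 FPKM required, Stc1 and Foxo1 did not enter the test, as their means were 2.785 and 4.61 FPKM. The causes of the other shifts were not tested. No pairing by replicate number was seen: deviations of same-numbered samples correlated at -0.143, -0.117 and -0.203. The labels state no pairing, and deviations from means of 3 samples cannot decide whether there was any. With the replicate block 220 genes were higher and 237 lower, 1 member was lower (Igfbp6, limma adjusted p = 0.0416, against 0.0582 for Igf1 and 0.0718 for Igfbp7), and 2 pathway genes were lower. Gga2, Foxo1 and Stc1 also lost their calls with it. With the replicate block and the length trend removed, 1107 genes were higher and 911 lower, 8 pathway genes were higher, and Igf1, Igfbp6 and Igfbp7 were called (limma adjusted p = 0.0117, 0.00287 and 0.00392). Igf1, Igf2, Igfbp2, Igfbp3, Igfbp5 and Airn rest on few fragments, which limits the precision of their levels.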
